A study of Arabidopsis thaliana with 12 samples.

Results

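The comparison described here asks which transcripts answered 24 h at 4 °C differently in the rcf1-1 mutant of Arabidopsis thaliana than in wild type. For each probe set the interaction was taken as the rcf1-1 difference (24 h minus 0 h) minus the wild-type difference (24 h minus 0 h), on the log2 scale. It was computed for all 22746 probe sets of the Affymetrix ATH1 array that remained after control probe sets were left out, and rests on 8 of the 12 arrays of the study, 2 in each of 4 groups. An interaction above 0 means that rcf1-1 rose more or fell less than wild type, and one below 0 that it rose less or fell more. Of these probe sets, 251 passed the test, or 1.1%. The interaction was above 0 in 136 (0.598%), called higher, and below 0 in 115 (0.506%), called lower. Both words refer to the interaction and not to the level in rcf1-1.

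Wild-type seedlings were of the Columbia gl1 line and held a luciferase reporter transgene, CBF2::LUC, and the mutant was rcf1-1. Whether rcf1-1 carries the same transgene and glabrous background is not given in the sources used here, and rcf1-1 is a single mutant line. All seedlings were 14 days old and had grown on Murashige and Skoog agar with sucrose at 21 °C under 16 h light and 8 h dark. The 0 h seedlings of each genotype were not chilled, and the 24 h seedlings of each genotype spent 24 h at 4 °C. RNA came from whole seedlings, so fewer cells of a type and less RNA per cell cannot be told apart. The submitters describe 2 biological replicates per genotype. Another pair of groups, chilled for 12 h, entered the estimate of the spread and is used below as a separate set of arrays.

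RCF1 encodes a nuclear DEAD-box RNA helicase that acts in pre-mRNA splicing in the cold. In chilled wild-type plants the CBF transcription factors switch on COR genes, whose products protect membranes and chloroplasts against freezing. Ribosome assembly and mitochondrial electron flow are also sensitive to cold, and alternative electron carriers of the mitochondrion are known to rise when its main chain is disturbed.

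Values are log2 RMA values, in which 1 unit is a doubling. Between the 2 arrays of a group, r over all probe sets was 0.989 to 0.996 in the groups at 0 h and 12 h but 0.955 in chilled wild type and 0.954 in chilled rcf1-1 at 24 h. The replicate 2 arrays at 24 h stood apart in both genotypes. Their actin control read 6.15 lower at its 5′ end than at its 3′ end in wild type and 5.89 lower in rcf1-1, against 1.49 to 2.03 lower on the other 10 arrays. The lowest median of any array was 4.03. Group means under this value are called close to the lowest signals and limit how well the sizes of differences that involve them are known. The RCF1 transcript itself (AT1G20920) and CBF1, CBF2 and CBF3 are not analysed here. AT3G09620, on the list of DEAD-box RNA helicases, had an interaction of 0.11 ± 0.18 (limma standard error), with all groups close to the lowest signals.

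Most of the higher probe sets passed the test for a cold response in the mutant and not in wild type. In 93 of the 136 the 24 h minus 0 h difference passed the test as a rise in rcf1-1 and not in wild type. Another 28 rose in both genotypes, 5 fell in wild type and rose in rcf1-1, and 10 fell in wild type only. Over all probe sets, 20.8% changed between 0 h and 24 h in rcf1-1 (8.38% rose and 12.4% fell) and 13.2% in wild type (5.83% rose and 7.33% fell). Calls in one genotype and not in the other describe the pattern, and the interaction itself is the test of the difference. The median interaction was 2.48 over the 136, against 0.01 over all probe sets. Of the 136, 98 exceeded 4-fold and 42 exceeded 8-fold.

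The lower probe sets split mainly between rises in wild type and falls in rcf1-1. In 45 of the 115 the transcript rose in wild type only, and in another 45 it fell in rcf1-1 only. A further 14 rose in wild type and fell in rcf1-1, 10 fell in both and 1 rose in both. The median interaction over the 115 was -1.87, and 43 exceeded 4-fold and 1 exceeded 8-fold. Of the 251 probe sets, 130 are paired with exactly 1 gene, 78 of them higher and 52 lower.

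**Figure D1:**
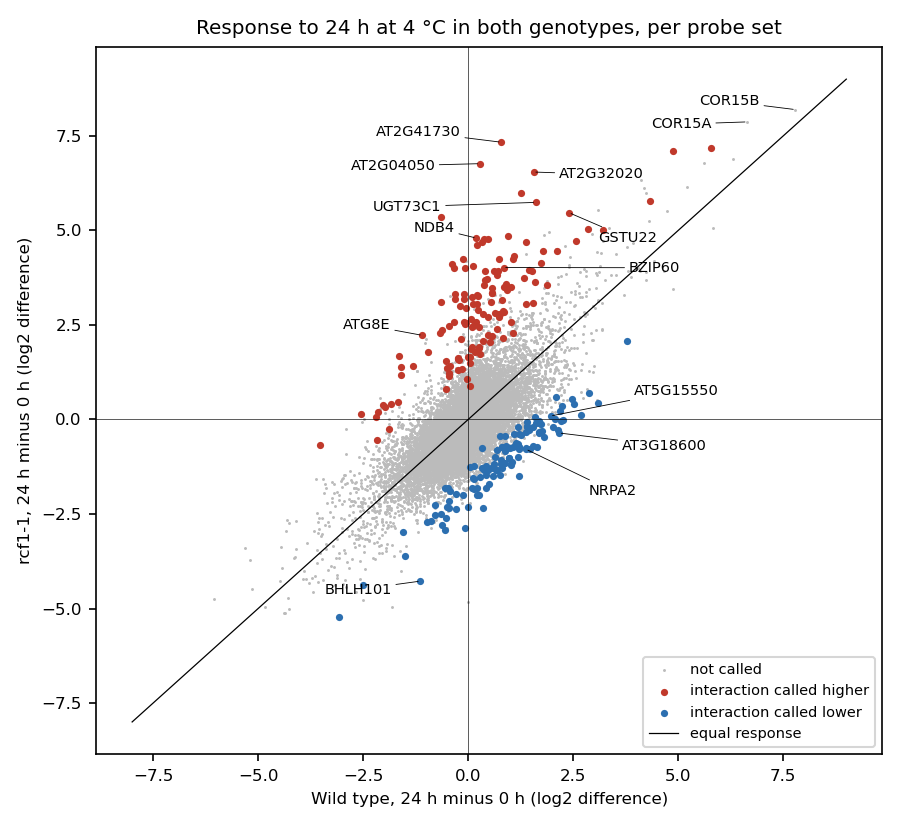
Each point is a probe set, with its wild-type difference between 24 h and 0 h on the horizontal axis and that of rcf1-1 on the vertical axis (both log2). The 136 probe sets called higher (red) lie above the line of equal response, many near 0 on the wild-type axis, and the 115 called lower (blue) lie below it. COR15A and COR15B rose in both genotypes and lie near the line.

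Because both 24 h replicate 2 arrays were shifted together, the interaction was also taken within each replicate number, where a shift shared by the genotypes cancels. All 251 called interactions had the same sign from the 4 replicate 1 arrays and from the 4 replicate 2 arrays, against 62.4% of all probe sets. These are the same arrays the calls were made on, so the shares describe the calls and do not test them. Over all probe sets the interactions from the replicate numbers correlated at r = 0.54 (Spearman 0.41). The smaller of the 2 sizes was never under 0.73 among the higher calls or under 0.76 among the lower ones. The sizes differed more than 2 times for 5 higher and 1 lower probe sets. With a term for the shared shift of the 24 h replicate 2 arrays, which leaves each interaction as it is and takes the shift out of the spread, 2581 probe sets passed (11.3%), with 1170 higher (5.14%) and 1411 lower (6.2%). All 251 were among them.

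**Figure D2:**
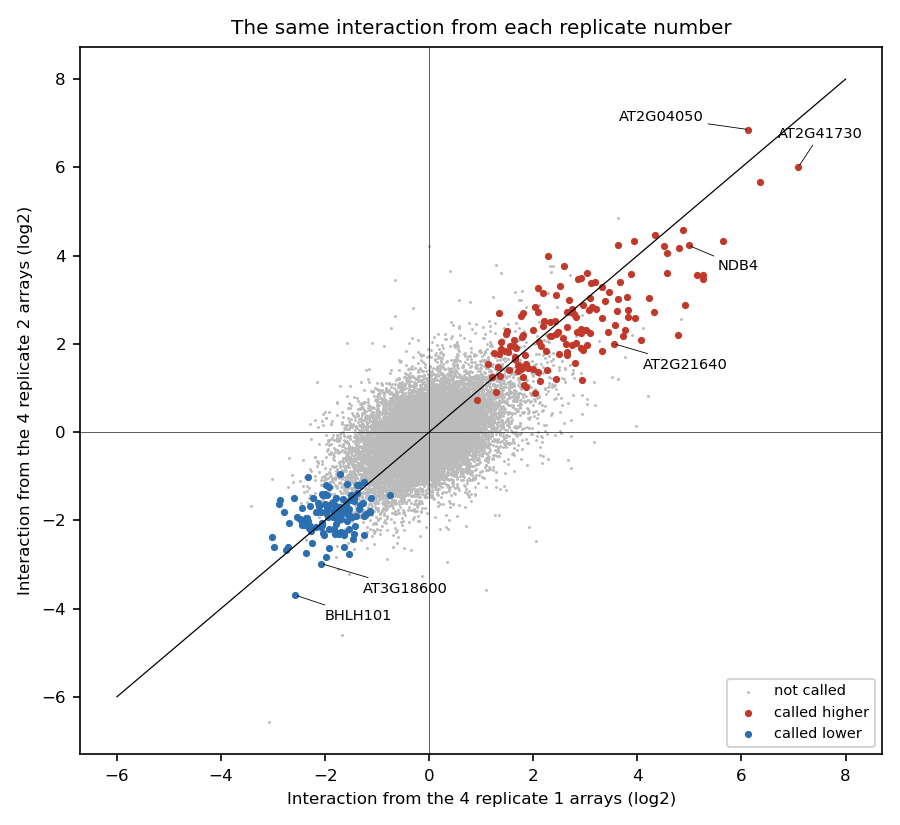
The interaction from the 4 replicate 1 arrays (horizontal) is set against the interaction from the 4 replicate 2 arrays (vertical), both log2, with the line of equal values. Called probe sets lie in the upper right (136, red) and lower left (115, blue) quadrants, and AT2G21640 (below the line) and BHLH101 are labelled with AT2G41730, AT2G04050, NDB4 and AT3G18600.

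The 4 largest called interactions with a single gene belonged to the mitochondrial stress list. It holds alternative NAD(P)H dehydrogenases, which pass electrons around respiratory complex I, and loci listed for a rise when mitochondria are disturbed. The list was drawn up with earlier results of these data known, so its direction is a description. Of its 11 measured genes, 5 were higher and 0 lower, with a median interaction of 2.78 against 0.01 over all probe sets. Of all probe sets, 0.598% were higher and 0.506% lower. With the term for the 24 h replicate 2 arrays 8 were higher, against 5.14% of all probe sets.

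AT2G41730 read 3.32 and 3.31 in wild type at 0 h, 4.11 and 4.08 in wild type at 24 h, 4.22 and 4.74 in rcf1-1 at 0 h, and 12.11 and 11.52 in rcf1-1 at 24 h. Both chilled mutant arrays lay far above the other 6, and unchilled wild type was close to the lowest signals. The cold difference was 0.78 ± 0.27 in wild type and 7.33 ± 0.27 in rcf1-1, an interaction of 6.55 ± 0.38 (limma, Benjamini-Hochberg adjusted p = 2.91e-05). Its probe set is of the kind that can also bind related transcripts.

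AT2G04050 had the same order of groups, with 2.73 and 3.04 in wild type at 0 h, 3.16 and 3.16 in wild type at 24 h, 4.06 and 3.41 in rcf1-1 at 0 h, and 10.62 and 10.38 in rcf1-1 at 24 h. Its interaction was 6.49 ± 0.40 (adjusted p = 3.09e-05), and the 3 other groups were close to the lowest signals. AT2G32020 had 3.93 and 3.41 in wild type at 0 h, 5.28 and 5.18 in wild type at 24 h, 3.91 and 3.65 in rcf1-1 at 0 h, and 10.90 and 9.74 in rcf1-1 at 24 h. Here wild type also moved, by 1.56 ± 0.34, and rcf1-1 by 6.54 ± 0.34, which gave an interaction of 4.98 ± 0.47 (adjusted p = 0.00099).

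NDB4, an alternative NAD(P)H dehydrogenase, was close to the lowest signals in every group but the chilled mutant. It read 3.0 and 2.87 in wild type at 0 h, 3.01 and 3.23 in wild type at 24 h, 3.25 and 3.15 in rcf1-1 at 0 h, and 8.25 and 7.75 in rcf1-1 at 24 h. The interaction was 4.61 ± 0.35 (adjusted p = 0.000223). Its relatives did not pass the test: NDB1 gave -0.13 ± 0.36, NDB2 1.08 ± 0.89, NDB3 0.26 ± 0.35 and NDC1 -0.63 ± 0.75. NDB2 gave 1.04 within replicate 1 and 1.13 within replicate 2. With the term for the 24 h replicate 2 arrays NDB2 was higher (limma, adjusted p = 0.0067), and NDB1, NDB3 and NDC1 were not called.

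AT2G21640 differed in kind, because it was high in rcf1-1 before any cold. It read 3.41 and 3.0 in wild type at 0 h, 3.44 and 4.13 in wild type at 24 h, 6.98 and 7.04 in rcf1-1 at 0 h, and 10.56 and 10.17 in rcf1-1 at 24 h. The genotype difference was 3.81 ± 0.27 at 0 h and 6.58 ± 0.27 at 24 h, so the interaction of 2.78 ± 0.39 (adjusted p = 0.00953) is a widening of a standing difference. The call was lost when either unchilled rcf1-1 array was left out (adjusted p up to 0.0728). AT5G51440 and AT5G09570 had like profiles, with genotype differences of 1.67 and 2.39 at 0 h and 4.46 and 4.11 at 24 h. Their interactions of 2.79 ± 0.68 and 1.72 ± 0.40 missed the threshold (adjusted p = 0.0877 and 0.0758).

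**Figure D3:**
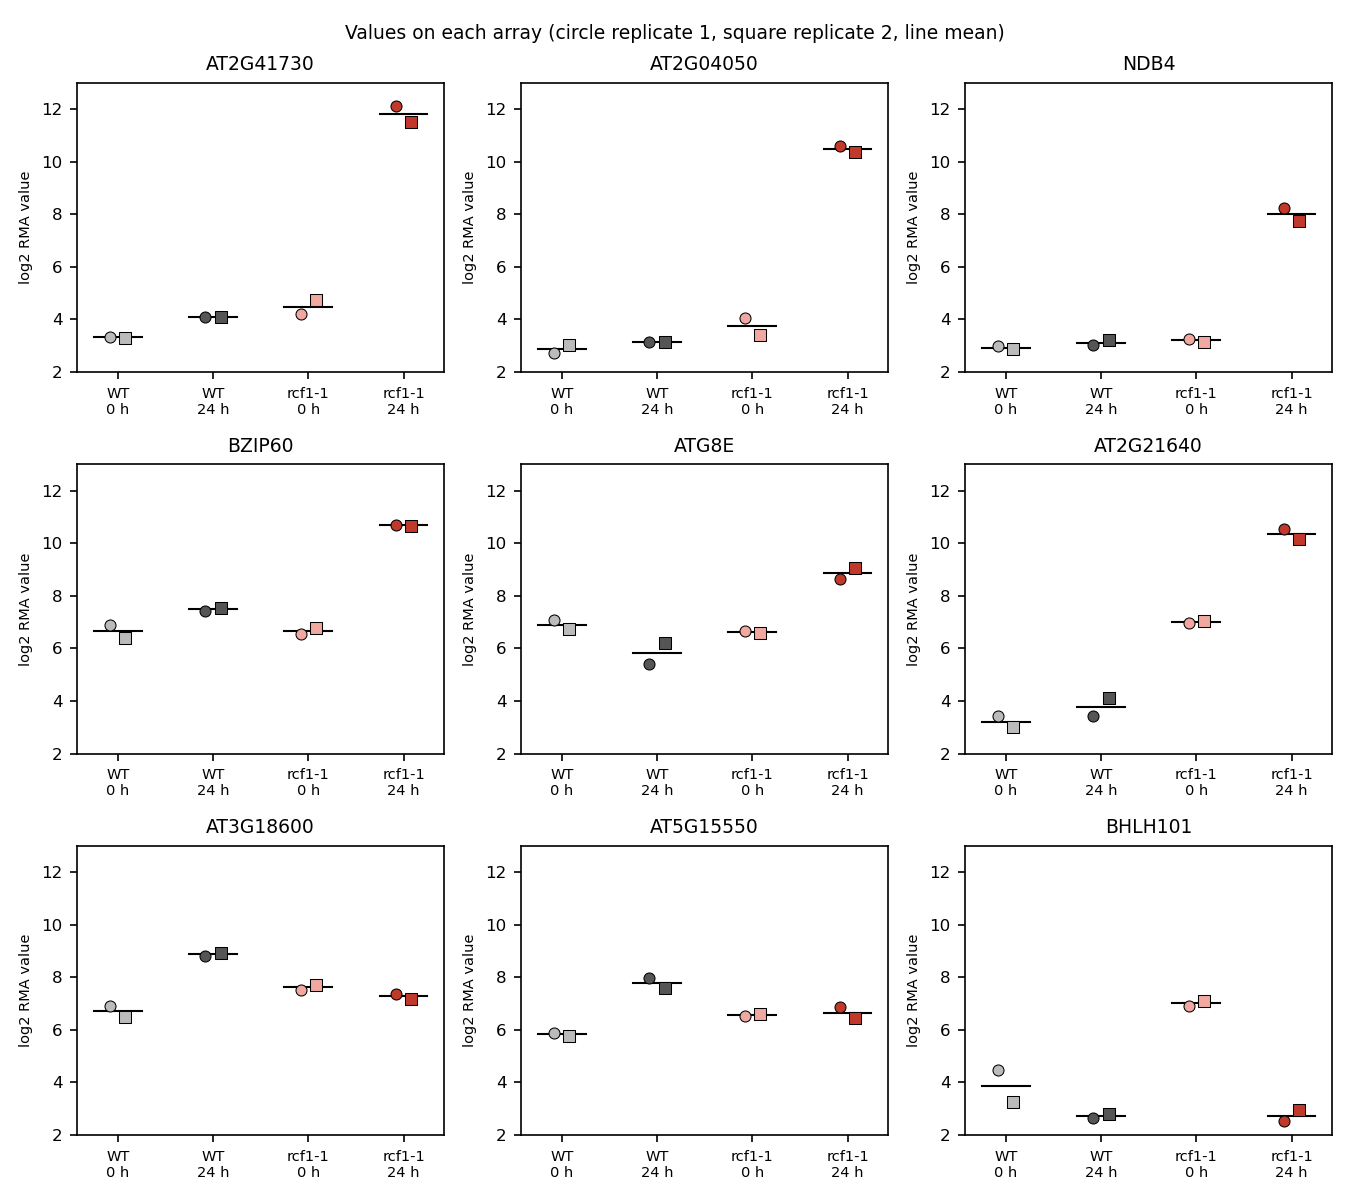
Log2 RMA values of 9 genes on each of the 8 arrays are shown by group, with a circle for replicate 1, a square for replicate 2 and a line for the mean. AT2G41730, AT2G04050 and NDB4 are high only in chilled rcf1-1, AT2G21640 is high in rcf1-1 at both times, AT3G18600 and AT5G15550 are highest in chilled wild type, and BHLH101 is high only in unchilled rcf1-1.

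Among transcripts of protein quality control, BZIP60 stood out from its list. BZIP60 is a transcription factor of the unfolded protein response, activated by splicing of its own message when the endoplasmic reticulum is under stress. It read 6.91 and 6.39 in wild type at 0 h, 7.43 and 7.56 in wild type at 24 h, 6.55 and 6.77 in rcf1-1 at 0 h, and 10.69 and 10.67 in rcf1-1 at 24 h. The unchilled genotypes overlapped and differed by 0.01 ± 0.21, and the interaction was 3.17 ± 0.30 (adjusted p = 0.00099). Of the 7 measured genes of the unfolded protein response list 1 was higher and 0 lower, with a median interaction of -0.09. Of all probe sets, 0.598% were higher and 0.506% lower. The term for the 24 h replicate 2 arrays gave 1 higher and 1 lower, against 5.14% and 6.2% of all probe sets. BZIP28 and BZIP17, the related membrane-bound factors, gave 0.89 ± 0.51 and 0.44 ± 0.42, and the lectin chaperone CRT1b, a calreticulin, gave -0.36 ± 0.30.

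ATG8E, a small protein joined to the membrane of forming autophagosomes, moved in opposite directions in the genotypes. It read 7.08 and 6.73 in wild type at 0 h, 5.41 and 6.21 in wild type at 24 h, 6.67 and 6.59 in rcf1-1 at 0 h, and 8.62 and 9.08 in rcf1-1 at 24 h. The chilled mutant arrays were the highest of the 8 and the chilled wild-type arrays the lowest. The cold difference was -1.09 ± 0.28 in wild type and 2.22 ± 0.28 in rcf1-1, for an interaction of 3.32 ± 0.40 (adjusted p = 0.0035). Of 10 measured autophagy genes 1 was higher and 0 lower, against 0.598% and 0.506% of all probe sets, with a median of 0.39. With the term for the 24 h replicate 2 arrays 2 were higher and 0 lower, against 5.14% and 6.2%. ATG8H came next with 1.11 ± 0.30 (adjusted p = 0.114), and the other ATG8 relatives lay between -0.07 and 0.68.

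Enzymes that conjugate foreign or damaging compounds gave 1 higher gene in each of 2 families. GSTU22, a glutathione transferase of the tau class, read 4.42 and 3.98 in wild type at 0 h, 6.59 and 6.62 in wild type at 24 h, 4.71 and 4.41 in rcf1-1 at 0 h, and 9.97 and 10.07 in rcf1-1 at 24 h. Both genotypes were higher in the cold, the mutant by 5.47 ± 0.24 and wild type by 2.40 ± 0.24, and the interaction was 3.06 ± 0.33 (adjusted p = 0.00222). It was the 1 called member of 14 glutathione transferases, whose median was 0.54, where 1.1% of all probe sets were called. UGT73C1, a glycosyltransferase, read 2.96 and 3.19 in wild type at 0 h, 5.25 and 4.10 in wild type at 24 h, 3.52 and 3.21 in rcf1-1 at 0 h, and 9.75 and 8.46 in rcf1-1 at 24 h. Its interaction was 4.14 ± 0.62 (adjusted p = 0.0126), and the call was lost when 1 of 3 arrays at 0 h was left out (adjusted p up to 0.0925). At 12 h wild type had read 7.76 and 8.20 and rcf1-1 9.02 and 8.81, so this transcript was high in both genotypes at 12 h. It was the 1 called member of 47 glycosyltransferases, whose median was 0.10, where 1.1% of all probe sets were called. With the term for the 24 h replicate 2 arrays 6 of the 47 were higher and 3 lower, and 2 of the 14 glutathione transferases were higher. Over all probe sets that term gave 5.14% higher and 6.2% lower.

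The other 7 of the 12 largest higher genes carry only locus numbers in the annotation. AT5G40690 read 4.73 and 5.27 in wild type at 0 h, 4.70 and 4.55 in wild type at 24 h, 5.03 and 5.03 in rcf1-1 at 0 h, and 9.80 and 8.49 in rcf1-1 at 24 h, an interaction of 4.49 ± 0.53 (adjusted p = 0.00327). In AT5G40690 all groups but the chilled mutant overlapped or nearly so. AT3G45730 (4.36 ± 0.43), AT2G20720 (4.36 ± 0.36), AT4G16680 (4.35 ± 0.48), AT4G28460 (4.09 ± 0.50), AT1G03660 (3.94 ± 0.45) and AT2G04070 (3.53 ± 0.30) were close to the lowest signals in the 3 other groups. On the chilled rcf1-1 arrays these 6 read from 5.96 (AT4G28460) to 8.53 (AT4G16680). All 7 kept the call whichever of the 12 arrays was left out.

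Both chilled mutant arrays lay above the other 6 arrays for 128 of the 136 higher probe sets, against 9.34% of all probe sets. Both lay below the other 6 for 69 of the 115 lower ones, against 11.5%. The calls were made on these same arrays, so both shares describe the calls and do not test them. At least 1 of the 4 groups was close to the lowest signals for 74 of the higher and 31 of the lower probe sets.

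The COR and dehydrin genes, the classic targets of the cold pathway, rose in both genotypes. Of 8 measured, 6 rose in wild type and 8 rose in rcf1-1, against 5.83% and 8.38% of all probe sets. COR15B, a chloroplast protein, read 3.50 and 3.31 in wild type at 0 h, 11.28 and 11.10 in wild type at 24 h, 3.45 and 3.32 in rcf1-1 at 0 h, and 11.62 and 11.54 in rcf1-1 at 24 h. COR15A, its relative, read 5.38 and 5.15 in wild type at 0 h, 12.67 and 11.13 in wild type at 24 h, 4.05 and 3.78 in rcf1-1 at 0 h, and 12.57 and 11.0 in rcf1-1 at 24 h. Its chilled arrays overlapped between genotypes, and its interaction of 1.23 ± 0.72 (adjusted p = 0.539) lay in the 0 h arrays, where the genotype difference was -1.35 ± 0.51 against -0.12 ± 0.51 at 24 h. With the term for the 24 h replicate 2 arrays COR15A was higher (limma, adjusted p = 0.000703). Unchilled rcf1-1 was close to the lowest signals for COR15A, as were both unchilled groups for COR15B. COR47, a dehydrin, read 9.15 and 9.15 in wild type at 0 h, 12.54 and 11.99 in wild type at 24 h, 8.80 and 8.85 in rcf1-1 at 0 h, and 12.88 and 12.56 in rcf1-1 at 24 h.

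No interaction of this list passed the limma test, and 5 of the 8 had an unadjusted p under 0.05, as did 12.7% of all probe sets. COR15B gave 0.41 ± 0.25, COR47 0.78 ± 0.28 (adjusted p = 0.567 and 0.262), and the largest, LEA4-5, 2.98 ± 1.02 (adjusted p = 0.227). All 8 lay above 0, with a median of 1.09. Of these, 6 were higher with the term for the 24 h replicate 2 arrays, against 5.14% of all probe sets. STZ, a zinc finger regulator of stress genes, read 3.39 and 4.06 in wild type at 0 h, 5.77 and 5.66 in wild type at 24 h, 5.51 and 5.11 in rcf1-1 at 0 h, and 7.93 and 7.20 in rcf1-1 at 24 h. The mutant was above wild type at both times and the interaction was 0.26 ± 0.42 (adjusted p = 0.873).

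Genes of ribosome biogenesis and RNA polymerase I, the enzyme that transcribes ribosomal RNA, formed the clearest group of lower interactions. All 10 measured members lay below 0, with a median of -1.46 against 0.01 over all probe sets, and 4 were called lower and 0 higher. Of all probe sets, 0.506% were lower and 0.598% higher. With the term for the 24 h replicate 2 arrays 9 were lower, against 6.2% of all probe sets. The wild-type cold differences ran from 0.87 to 1.96, and 7 of the 10 rose, against 5.83% of all probe sets. In rcf1-1 they ran from -0.79 to 1.08, and 1 of the 10 passed the test, against 20.8% of all probe sets. The genotype difference was above 0 in all 10 before cold and below 0 in all 10 after 24 h. These are signs of group means, and among the called interactions 0 had genotype differences called at both times with opposite signs. The chilled arrays of the genotypes overlapped for AT3G12860, AT3G05060 and RRP41. AT3G12860 read 5.72 and 4.62 in wild type at 24 h and 5.60 and 4.73 in rcf1-1 at 24 h, so its sign rests on almost no difference. This list too was drawn up with earlier results of these data known, so its direction is a description.

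NRPA2, the second-largest subunit of RNA polymerase I, read 6.28 and 5.32 in wild type at 0 h, 7.45 and 6.90 in wild type at 24 h, 6.59 and 6.68 in rcf1-1 at 0 h, and 5.72 and 5.97 in rcf1-1 at 24 h. The chilled arrays did not overlap, with wild type above and the mutant below. Its interaction was -2.17 ± 0.45 (adjusted p = 0.0495), just inside the threshold, and it was lost when any 1 of 9 arrays was left out. The largest subunit, NRPA1, gave -1.46 ± 0.31 and missed the threshold (adjusted p = 0.0546).

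AT5G15550 read 5.90 and 5.77 in wild type at 0 h, 7.98 and 7.61 in wild type at 24 h, 6.52 and 6.59 in rcf1-1 at 0 h, and 6.86 and 6.44 in rcf1-1 at 24 h. Wild type moved by 1.96 ± 0.23 and rcf1-1 by 0.09 ± 0.23, for an interaction of -1.87 ± 0.32 (adjusted p = 0.022). AT2G40360 read 7.74 and 7.69 in wild type at 0 h, 8.93 and 9.23 in wild type at 24 h, 8.47 and 8.47 in rcf1-1 at 0 h, and 8.11 and 8.14 in rcf1-1 at 24 h, with an interaction of -1.71 ± 0.26 (adjusted p = 0.0128). In both genes unchilled rcf1-1 lay between unchilled and chilled wild type. PES, the pescadillo protein that works in maturation of the large ribosomal subunit, was the remaining called member and was picked out after its values were seen. It read 7.72 and 7.40 in wild type at 0 h, 9.06 and 8.85 in wild type at 24 h, 8.18 and 8.13 in rcf1-1 at 0 h, and 8.08 and 8.10 in rcf1-1 at 24 h. PES gave an interaction of -1.46 ± 0.28 (adjusted p = 0.0341), and RRP41, a subunit of the RNA exosome, gave -0.62 ± 0.45 (adjusted p = 0.641).

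Chilled wild type was also the highest group for AT3G18600, AT1G79150 and AT4G28450, which carry a locus number only. AT3G18600 read 6.91 and 6.51 in wild type at 0 h, 8.82 and 8.93 in wild type at 24 h, 7.54 and 7.73 in rcf1-1 at 0 h, and 7.38 and 7.17 in rcf1-1 at 24 h. Its interaction was -2.53 ± 0.29 (adjusted p = 0.00315), and it kept the call whichever array was left out. AT1G79150 read 4.22 and 3.96 in wild type at 0 h, 6.36 and 6.32 in wild type at 24 h, 4.85 and 5.07 in rcf1-1 at 0 h, and 5.07 and 4.80 in rcf1-1 at 24 h, an interaction of -2.27 ± 0.30 (adjusted p = 0.00673). Wild type moved by 2.25 ± 0.21 and the mutant by -0.02 ± 0.21. AT4G28450 went from 4.80 and 4.79 to 7.40 and 7.23 in wild type and from 6.03 and 6.08 to 7.0 and 5.92 in rcf1-1, an interaction of -2.12 ± 0.43 (adjusted p = 0.0471).

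For LPA19 and AT4G36860 the unchilled genotypes lay close together and the chilled mutant was the lowest group. LPA19, a Psb27 homologue needed for the assembly of photosystem II, read 6.08 and 5.82 in wild type at 0 h, 6.54 and 6.90 in wild type at 24 h, 6.11 and 6.06 in rcf1-1 at 0 h, and 4.18 and 5.03 in rcf1-1 at 24 h. The genotype difference of LPA19 was 0.14 ± 0.29 at 0 h and -2.11 ± 0.29 at 24 h, and its interaction -2.25 ± 0.41 (adjusted p = 0.0296). AT4G36860 went from 6.53 and 6.53 to 6.52 and 5.96 in wild type and from 6.73 and 6.83 to 4.66 and 4.15 in rcf1-1, an interaction of -2.09 ± 0.37 (adjusted p = 0.0246). AT2G03420 (-2.71 ± 0.44), AT5G19240 (-2.25 ± 0.40), AT1G79950 (-2.16 ± 0.42), AT5G55580, annotated as mTERF9 of the mTERF family (-2.15 ± 0.41), and AT1G07650 (-2.08 ± 0.40) complete the 12 largest. For AT1G07650 the chilled mutant was close to the lowest signals.

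The total depended on single arrays. When 1 of the 8 arrays at 0 h and 12 h was left out, 37 to 127 probe sets were called, and when 1 of the 24 h arrays was left out, 400 to 964. Of the 136 higher, 33 kept the call whichever of the 12 arrays was left out, and of the 115 lower, 2 did. AT5G19240, LPA19, AT5G55580, AT4G36860 and AT5G15550 each lost it when any 1 of the 8 arrays at 0 h and 12 h was left out, with an adjusted p of up to 0.196. AT1G79950, AT4G28450 and AT1G07650 lost it without any 1 of those 8 or 1 of the 24 h replicate 1 arrays (adjusted p up to 0.222), and AT2G03420 without any 1 of 5 arrays (up to 0.118). AT2G40360 lost it without any 1 of 3 arrays at 0 h (up to 0.102), and AT1G79150 without 1 rcf1-1 array at 0 h (0.0728). With the 8 compared arrays alone 28 probe sets passed, all higher, among them AT2G41730, AT2G04050, AT2G32020, NDB4, AT5G40690, AT3G45730, AT2G20720, AT4G16680, AT2G04070, BZIP60 and GSTU22.

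An interaction can also arise from a difference that exists only before cold, so each called interaction was split by time. It equals the genotype difference at 24 h minus that at 0 h. It was put down to 24 h where the 24 h difference made up at least 0.75 of it, to 0 h where it made up 0.25 or less, and otherwise to opposite differences at both times. By this rule 127 higher and 73 lower probe sets were put down to 24 h, 1 higher and 3 lower to 0 h, and 8 higher and 39 lower to both times. The 24 h class also takes in standing differences that widened. AT2G21640 is in it, with a genotype difference of 3.81 at 0 h and 6.58 at 24 h. Tested on its own over all probe sets, the genotype difference passed at 0 h for 25 (0.11%), 21 higher (0.0923%) and 4 lower (0.0176%). At 24 h it passed for 1706 (7.5%), 753 higher (3.31%) and 953 lower (4.19%). The rule uses the values that make up the interaction, so the split is a description. AT3G18600, AT1G79150, AT5G19240, NRPA2, AT4G28450, AT5G15550, AT2G40360 and CYP71B36 were the called genes named by rule in the last class, with rcf1-1 above wild type at 0 h and below it at 24 h.

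BHLH101, a transcription factor of the iron deficiency response, was the largest gene put down to 0 h. It read 4.47 and 3.24 in wild type at 0 h, 2.64 and 2.79 in wild type at 24 h, 6.91 and 7.11 in rcf1-1 at 0 h, and 2.52 and 2.96 in rcf1-1 at 24 h. Unchilled rcf1-1 was above all other arrays, and the chilled genotypes overlapped. Every group of BHLH101 but unchilled rcf1-1 was close to the lowest signals, which limits how well these sizes are known. The genotype difference was 3.16 ± 0.33 at 0 h, 0.34 ± 0.33 at 12 h and 0.02 ± 0.33 at 24 h. The interaction was -3.13 ± 0.47 (adjusted p = 0.0126), and the call was lost without either unchilled rcf1-1 array (adjusted p up to 0.0866). AT1G47400, the other measured member of the iron list, had a larger but more scattered interaction of -4.83 ± 1.34 (adjusted p = 0.126), with 6.87 and 3.53 in wild type at 0 h and 8.87 and 8.79 in rcf1-1 at 0 h.

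AT1G72920 read 2.98 and 3.24 in wild type at 0 h, 2.66 and 2.58 in wild type at 24 h, 5.14 and 4.60 in rcf1-1 at 0 h, and 3.10 and 2.99 in rcf1-1 at 24 h. Its unchilled mutant arrays stood clear of the lowest signals and its other arrays did not, and its interaction was -1.34 ± 0.27 (adjusted p = 0.0473, lost without any 1 of 9 arrays). AT5G45310 was the reverse case. It read 4.32 and 4.61 in wild type at 0 h, 2.42 and 2.71 in wild type at 24 h, 3.13 and 3.10 in rcf1-1 at 0 h, and 2.68 and 3.06 in rcf1-1 at 24 h, an interaction of 1.65 ± 0.28 (adjusted p = 0.0214, lost without any 1 of 5 arrays). The remaining probe set of this class, 254767_s_at, has no single gene and gave -1.27 ± 0.20 (adjusted p = 0.0177).

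A further 9 genes named by rule had 0 h profiles but missed the threshold. ORA47, an AP2/ERF factor tied to jasmonate synthesis, read 2.77 and 2.68 in wild type at 0 h, 4.70 and 4.11 in rcf1-1 at 0 h, and from 2.76 to 3.31 on the 4 chilled arrays, for an interaction of -1.37 ± 0.29 (adjusted p = 0.0519). HIS1-3, a linker histone variant, read 5.65 and 6.75 in wild type at 0 h and 4.62 and 4.35 in rcf1-1 at 0 h, and from 3.63 to 3.91 on the chilled arrays, with an interaction of 1.74 ± 0.45 (adjusted p = 0.103). AT5G22460 (1.46 ± 0.33), AT2G41190 (1.27 ± 0.30), AT1G04560 (1.78 ± 0.46) and AT2G29300 (1.1 ± 0.30) were lower in unchilled rcf1-1 than in unchilled wild type on both arrays. AT2G28600 (-1.03 ± 0.28), AT3G50280 (-0.74 ± 0.20) and AT4G14980 (-0.98 ± 0.26) were higher there, with all groups of AT3G50280 close to the lowest signals.

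The arrays at 12 h, which the interaction at 24 h does not contain, gave a separate reading of the genotype difference. Both use the same estimate of the spread. The 12 h count below came to between 23 and 213 without any 1 array at 0 h or 12 h and to between 565 and 673 without any 1 at 24 h. At 12 h, 307 probe sets differed between genotypes (1.35%), with 123 higher in rcf1-1 (0.541%) and 184 lower (0.809%). Of the 136 higher interactions, 38 were also higher at 12 h, which is 27.9% of them and 30.9% of the 123. Of the 115 lower ones, 18 were lower at 12 h, which is 15.7% of them and 9.78% of the 184. None of the 251 was called in the opposite direction at 12 h. The sign at 12 h was the same for 86.0% of the higher and 75.7% of the lower interactions, where 48.7% of all probe sets lay above 0 at 12 h.

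The genes differed in when they diverged. AT2G32020 had a genotype difference of 4.85 ± 0.34 at 12 h and 5.09 ± 0.34 at 24 h, so its difference was already present at 12 h. AT4G16680 was likewise at 3.95 ± 0.34 and 5.18 ± 0.34. AT2G41730 widened from 4.99 ± 0.27 to 7.72 ± 0.27 and AT2G04050 from 4.43 ± 0.28 to 7.34 ± 0.28. AT2G20720 showed no such start, with 0.13 ± 0.26 at 12 h and 4.51 ± 0.26 at 24 h, and AT1G03660 and AT2G04070 were at 0.29 ± 0.32 and 0.46 ± 0.21 at 12 h and at 3.89 ± 0.32 and 3.79 ± 0.21 at 24 h. The change from 12 h to 24 h was tested over all probe sets and passed for 58 (0.255%), 48 higher (0.211%) and 10 lower (0.044%). It passed for AT2G20720, AT1G03660 and AT2G04070 (adjusted p = 0.00131, 0.012 and 0.00165) and not for AT2G32020 (adjusted p = 0.941).

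For all 10 ribosome biogenesis genes the genotype difference at 12 h lay between those at 0 h and 24 h, with adjusted p from 0.701 to 0.992 (limma). Its median over the list was 0.61 at 0 h, 0.18 at 12 h and -0.91 at 24 h. AT5G15550 went from 0.72 at 0 h to -0.25 at 12 h and -1.15 at 24 h, and NRPA2 from 0.84 to 0.22 and -1.33. Over the lower probe sets as a whole the median genotype difference was 0.29 at 0 h, -0.37 at 12 h and -1.53 at 24 h, and over the higher ones 0.04, 0.72 and 2.60.

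**Figure D4:**
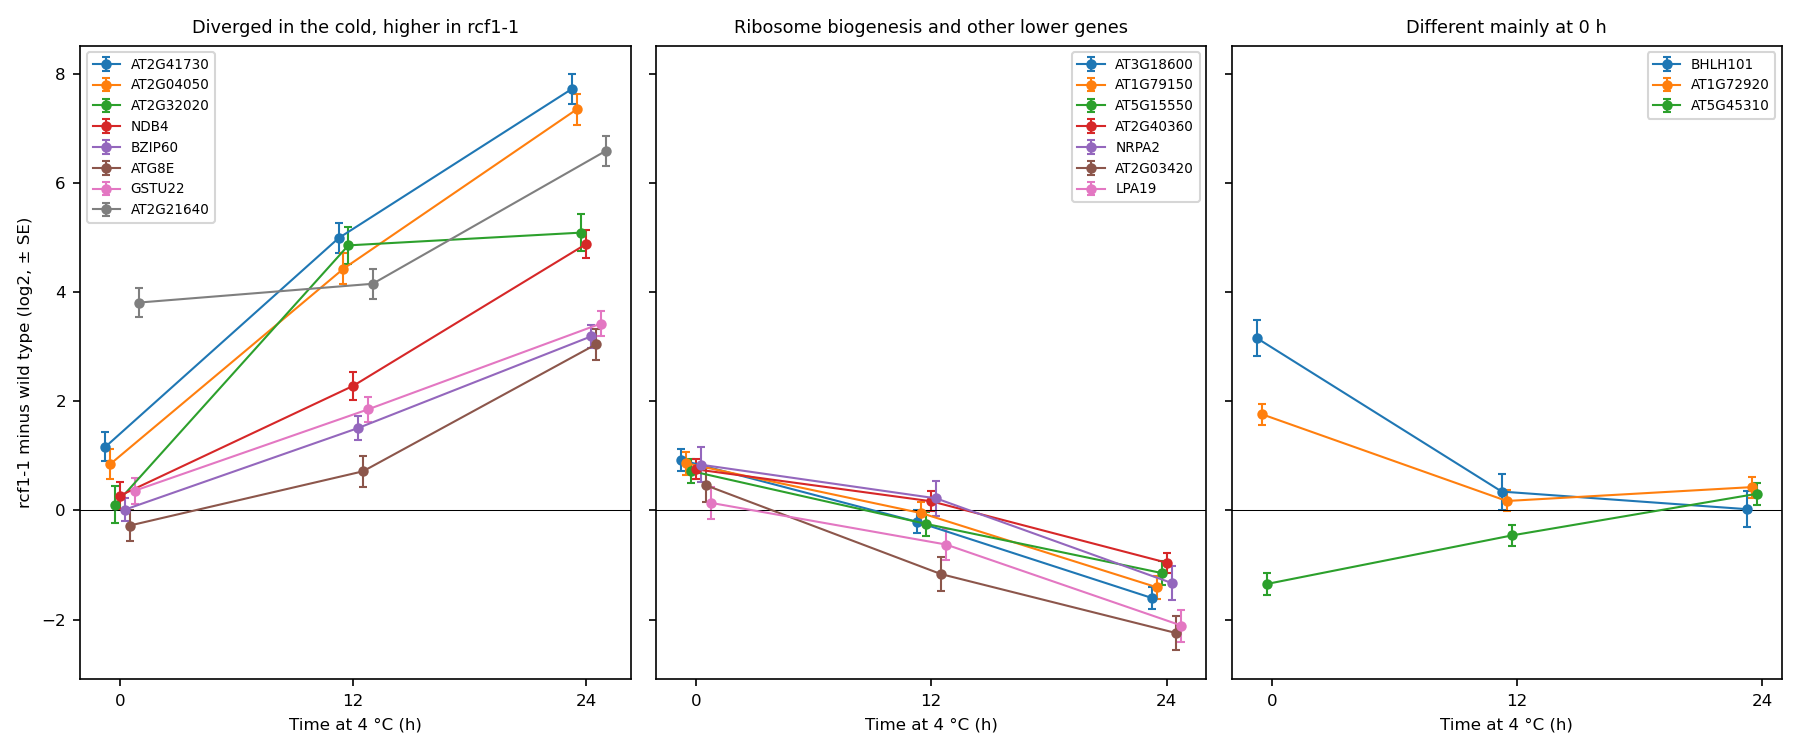
The genotype difference (rcf1-1 minus wild type, log2, with limma standard errors) is plotted against hours at 4 °C for 18 genes. The left panel shows genes that widened above 0 by 24 h, the middle panel genes that crossed from above 0 to below it or fell below it, and the right panel BHLH101, AT1G72920 and AT5G45310, whose difference was largest at 0 h.

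Most other gene lists had no called interaction. Of the 29 gene lists with a measured gene, 21 had no called member. At an unadjusted p under 0.05, limma picked 0 members of the jasmonate, nuclear photosynthesis, chloroplast genome, mitochondrial genome, root, guard cell, WRKY, DEAD-box and SR lists given below. It picked 3 of the flavonoid, 2 of the abscisic acid and drought, 2 of the auxin and 1 of the heat shock lists, which hold few genes each, against the 12.7% of all probe sets given above. The jasmonate list gave 0 called of 6 and a median of 0.03, although the mutant was far above wild type at every time for some of its genes. PDF1.2, a defensin that marks jasmonate signalling, read 3.34 and 2.77 in wild type at 0 h, 3.28 and 3.17 in wild type at 24 h, 6.56 and 8.33 in rcf1-1 at 0 h, and 7.58 and 7.87 in rcf1-1 at 24 h. Its genotype difference was 4.39 at 0 h and 4.50 at 24 h, and its interaction 0.11 ± 0.69. Nuclear photosynthesis genes gave 0 called of 11 and a median of 0.26, genes of the chloroplast genome 0 of 69 and 0.09, and those of the mitochondrial genome 0 of 16 and 0.07. Flavonoid and anthocyanin genes gave 0 of 7 and a median of -0.63, with 3 lower and 1 higher under the term for the 24 h replicate 2 arrays. The abscisic acid and drought list gave 0 of 3 and a median of 1.66, and 2 of the 3 were higher under that term. LEA4-5 is in this list and in the COR list. UGT78D1, UGT78D2 and UGT78D3 are in the flavonoid list and in the glycosyltransferase list, so the counts of these lists share members. Of the remaining lists, heat shock proteins gave 0 of 5 and -0.18, WRKY factors 0 of 6 and -0.30, and auxin genes 0 of 11 and 0.05. The DEAD-box RNA helicases gave 0 of 3 and -0.29, and the SR and spliceosomal genes 0 of 4 and 0.11. AT3G09620 is in both of these lists. The DEAD-box count covers the 3 listed genes only and says nothing of helicases outside the list. CYP71B36 was the 1 called member of 24 cytochromes P450, at -1.1 ± 0.20 (adjusted p = 0.0258), but all its groups were close to the lowest signals and the call was lost without any 1 of 8 arrays. Of all probe sets, 1.1% had a called interaction. With the term for the 24 h replicate 2 arrays 1 of the 24 was higher and 2 were lower. Over all probe sets that term gave 5.14% higher and 6.2% lower.

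No marker of an organ or cell type in the seedlings had a called interaction. The 3 root markers gave interactions from -0.03 to 0.02. Their mean level per array ran from 4.35 to 4.77 in wild type at 0 h and 4.92 to 5.49 in wild type at 24 h. In rcf1-1 it ran from 4.27 to 4.47 at 0 h and 4.68 to 5.33 at 24 h. The members moved in opposite directions, so this mean is not a common root level. The wild-type cold difference was 3.10 for XTH20, -0.67 for EXPA18 and -0.51 for EXPA7. The 1 guard cell marker measured, AT1G22690, gave 0.21 ± 0.30, and wild-type arrays read 8.29 to 8.66 for it, rcf1-1 arrays 7.75 to 8.12. The 11 nuclear photosynthesis genes averaged 10.5 on both arrays of wild type at 0 h and 10.1 to 10.2 in rcf1-1 at 0 h, and 9.29 to 9.69 in wild type at 24 h and 9.29 to 9.51 in rcf1-1 at 24 h. None of these markers was close to the lowest signals on every array, and their part in the results above was not tested.

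**Figure D5:**
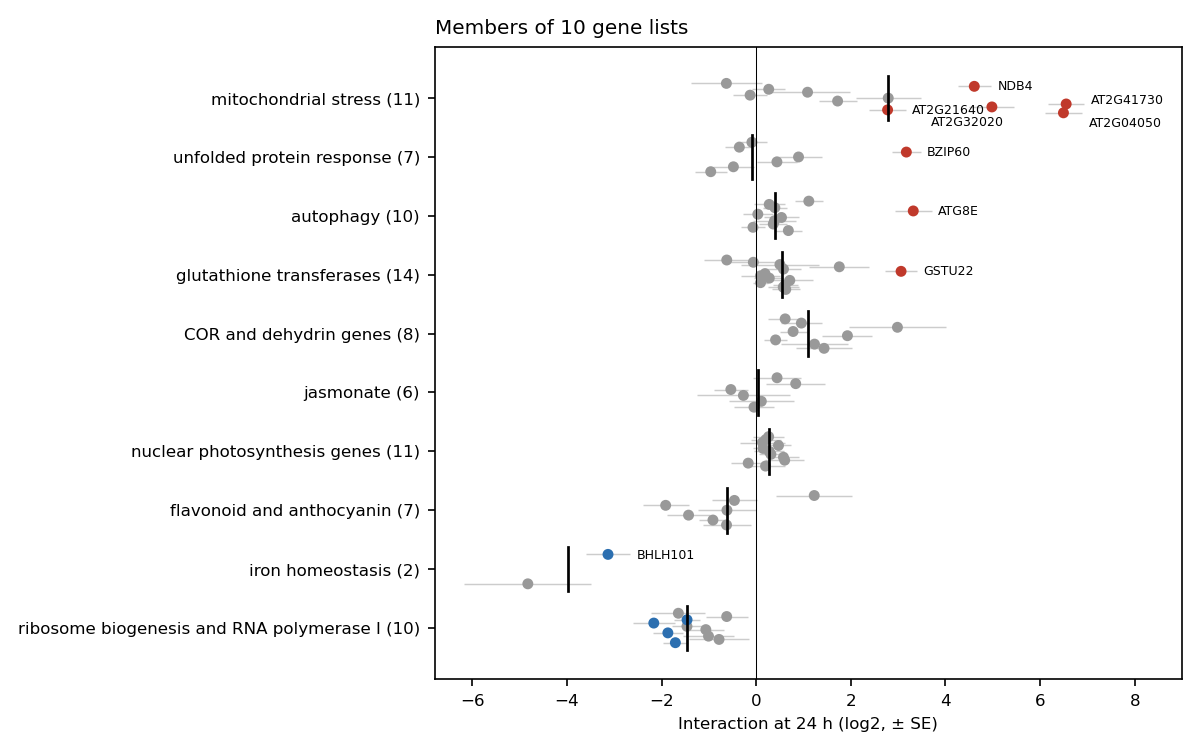
Interactions at 24 h (log2, with limma standard errors) are shown for the measured members of 10 gene lists, with the number measured in brackets and a bar at the median. Coloured points passed the test: 5 of 11 mitochondrial stress genes lie to the right, 4 of 10 ribosome biogenesis genes to the left, and the 8 COR and dehydrin genes lie above 0 without passing.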

How the data were processed

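Biotin-labelled RNA from 12 seedling samples was hybridised to ATH1 arrays, and groups were taken from the sample titles. The authors' deposited log2 values were used as they stand, and per the submitters' processing notes they come from RMA. Which software ran it and over which arrays is not given in the sources used here. No scanner file was used. Of 22810 probe sets, 64 controls were left out. The probe annotation gave 1 gene for 13513, several for 503 and none for 8730. Of the first, 13436 were found in the RefSeq table of TAIR10.1.

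limma 3.58.1 in R 4.3.3 fitted a mean per group on all 12 arrays (6 residual and 4.7 prior degrees of freedom, eBayes with trend). Two-sided p-values were Benjamini-Hochberg adjusted over 22746 probe sets, called under 0.05, and the procedure was tested on simulated data. The number of arrays limits the precision. Only the spread between samples described as biological replicates is measured.

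The members, the 32 gene lists and the naming rule were chosen with earlier results of these data known. The rule names the 12 largest called interactions per direction with 1 gene and the same sign in both replicate numbers, 6 per direction put down to 0 h, the 3 largest called of each list, and 10 genes in any case, where paired. Lists took loci and symbols from general knowledge, and each gene its brightest probe set. FRO1 and CHI matched a list by symbol only and were removed. Replicate numbers shared between genotypes did not pair the samples at every time: the replicate differences of the genotypes correlated at -0.07 (0 h), -0.06 (12 h) and 0.69 (24 h). Alternatives were a fit without trend, a filter below the 30th percentile, a second quantile normalization, replicate blocks, terms for or removal of 24 h arrays, array weights, the compared arrays alone, a 2-fold minimum, and leaving out each array. A promoter motif search was planned and not run.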

Additional observations from a re-analysis of the deposited data

Results flagged for a closer look

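For 33 of the 47 named genes the wild-type and rcf1-1 responses to 24 h at 4 °C differed (limma, adjusted p under 0.05). The naming rule takes mainly called interactions, so this share follows from the rule. Over all probe sets 1.1% passed. Positive interactions on the log2 scale were AT2G41730 (6.55), AT2G04050 (6.49), AT2G32020 (4.98), NDB4 (4.61), AT5G40690 (4.49), AT3G45730 (4.36), AT2G20720 (4.36) and AT4G16680 (4.35). Smaller positive ones were UGT73C1 (4.14), AT4G28460 (4.09), AT1G03660 (3.94), AT2G04070 (3.53), ATG8E (3.32), BZIP60 (3.17), GSTU22 (3.06), AT2G21640 (2.78) and AT5G45310 (1.65). Negative interactions were BHLH101 (-3.13), AT2G03420 (-2.71), AT3G18600 (-2.53), AT1G79150 (-2.27), AT5G19240 (-2.25), LPA19 (-2.25), NRPA2 (-2.17) and AT1G79950 (-2.16). Smaller negative ones were AT5G55580 (-2.15), AT4G28450 (-2.12), AT4G36860 (-2.09), AT1G07650 (-2.08), AT5G15550 (-1.87), AT2G40360 (-1.71), AT1G72920 (-1.34) and CYP71B36 (-1.1). Each sign is that of the difference in cold response, not of the genotype difference at either time.

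The genotype difference also changed between 12 h and 24 h for 9 of these genes by the same kind of test. On the log2 scale the change was 4.38 for AT2G20720, 3.59 for AT1G03660, 3.33 for AT2G04070, 2.92 for AT2G04050, 2.73 for AT2G41730, 2.60 for NDB4, 2.56 for AT3G45730, 2.43 for AT2G21640 and 2.33 for ATG8E.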

How the results depend on the processing

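The count of interactions at 24 h moved more than their direction. From 251 it came to 467 without the variance trend, 147 with array weights, 31 with a 2-fold minimum, 28 with the compared arrays alone, 2581 with a term for the 24 h replicate 2 pair, 3150 without both of them and 2396 without both 24 h replicate 1 arrays. Leaving out 1 array gave 37 (without unchilled rcf1-1 replicate 2) to 964 (without chilled rcf1-1 replicate 2). In the same order the 307 calls at 12 h came to 478, 2982, 19, 3874, 2196, 3105 and 3103, with 23 to 673 leaving out 1 array, and the 58 calls of the change from 12 h to 24 h to 128, 31, 5, 5, 1530, 2024 and 1453, with 6 to 428, and 103 after a second quantile normalization. The cause was not tested. With the replicate number as a block 235 interactions were called, and with a replicate block within each time 1799, against 1528 at 12 h and 886 for the change. Of the 33 called named genes the first block ended 2 calls (NRPA2 and AT1G72920), array weights 7, the second quantile normalization 3, the 2-fold minimum 19 and the compared arrays alone 22. None was lost without the trend, with the block within each time, with the term for the 24 h replicate 2 pair or without either 24 h pair, nor any of the 32 that the filter on low values kept. The 0 h split came to 7 with limits of 0.6 and 0.4, and the split at both times to 18, or to 1 when classes were taken from calls of the genotype difference. That 1 had the same sign at both times, 0 were called with opposite signs, and 7 were called at neither time. STZ, not called, changed sign, to -0.049 without both 24 h replicate 1 arrays, -0.071 without wild type 0 h replicate 2 and -0.11 without rcf1-1 24 h replicate 1, and ran from -0.11 to 0.63 leaving out 1 array. No called named gene changed sign in any setting. The filter on low values left 359 interactions called and the second quantile normalization 359. Signal limits the sizes, since 74 higher and 31 lower interactions involve a group close to the lowest signals.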

Other observations

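Among called genes outside the lists, BIGYIN, a FIS1-type protein of organelle division, had an interaction of 1.69 ± 0.29 (limma, adjusted p = 0.0214), with cold differences of 1.37 in wild type and 3.07 in rcf1-1. AAPT2, an aminoalcoholphosphotransferase of membrane lipid synthesis, gave -1.79 ± 0.29 (adjusted p = 0.0187), SCPL34, a serine carboxypeptidase-like protein, -2.03 ± 0.38 (adjusted p = 0.0313), the ubiquitin ligase LUL2 -1.30 ± 0.26 (adjusted p = 0.0404) and JMT, which methylates jasmonic acid, -1.20 ± 0.22 (adjusted p = 0.0296). For SCPL34 the genotypes differed by 0.04 at 0 h, 0.03 at 12 h and -1.99 at 24 h. These genes were picked after their values were seen.

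The annotation pairs 121 of the 251 called probe sets with no gene or with several. The largest is 247435_at, at 6.02 ± 0.32 (adjusted p = 2.91e-05), with a genotype difference of 0.04 at 0 h, 3.55 at 12 h and 6.05 at 24 h. In the other direction 258113_at gave -2.79 ± 0.43 (adjusted p = 0.0147).

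Of 127 called genes placed on chromosomes, 8 pairs lay within 5 genes of each other, and 3 pairs ran in the same direction. How many such pairs other sets of measured genes would give was not tested, so these counts are a description. Of the 3 pairs, AT2G04050 and AT2G04070, 5 genes apart, gave 6.49 ± 0.40 and 3.53 ± 0.30. AT2G32020 and its direct neighbour AT2G32030 gave 4.98 ± 0.47 and 2.85 ± 0.39, and AT4G37550 and its neighbour AT4G37560 gave -1.81 ± 0.27 and -1.87 ± 0.38. The direct neighbours AT4G28450 and AT4G28460 went opposite ways, at -2.12 ± 0.43 and 4.09 ± 0.50.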
